A study of Mus musculus with 27 samples.

Results

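Type I interferon response genes, the genes that cells switch on after type I interferon binds its receptor, were followed in 27 messenger RNA sequencing libraries of mouse thyroid tumor cell lines and wildtype samples. The set was a list of 35 gene symbols, taken from the count table by name and not by their values. The table holds 33924 symbols, and 34 of the 35 were found in it, while Ifi27 was not analysed here. Of these 34, 31 passed the filter on low counts among the 24 tumor line libraries (Zbp1, Oas2 and Oas3 did not), and 33 passed it over all 27 libraries (Oas3 did not).

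The 24 tumor line libraries came from 12 lines that all carry Braf V600E, an allele that keeps MAPK signalling active. Each genotype had 3 lines: Braf with a knockout (KO) of Arid1a (BA45198, BA47473 and BA49112), Arid2 (AB51189, AB52980 and AB55694) or Smarcb1 (BS53736, BS53958 and BS53965), and Braf alone (B47275, B48051 and B52482). ARID1A, ARID2 and SMARCB1 are subunits of SWI/SNF, a complex that moves nucleosomes. Every line had 1 library after CH5126766 (CKI), which blocks RAF and MEK, given at 300 nM over 8 days, and 1 library after vehicle. The labels mention bovine TSH in a way that does not settle whether vehicle cells received it. The last 3 libraries are labelled wildtype (WT) and untreated, and their source label is the tumor cell line one, although they hold thyroid follicular, leukocyte and endothelial markers at levels above those of nearly all lines. Whether they are cells or tissue is thus not settled. They are called the first, the second and the third WT library in the order of their labels. The sources used here do not say what drives the Braf allele and the deletions, or whether a line is 1 clone. In the lists of values that follow, lines of a genotype stand in the order named here.

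Type I interferons bind a receptor whose kinases phosphorylate STAT2, which joins IRF9 in a complex that binds interferon-stimulated response elements in promoters. The induced genes block viral RNA, proteins and particles, and several of them (STAT2, IRF7, IRF9, the RNA sensors) feed back into the same pathway. Cultured epithelial and tumor cells often keep a low basal level of these genes without added interferon.

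The promoter sequences show how the response element is written in genes that the results turn on. Windows of 250 bases before to 50 bases after a start site were taken from RefSeq (build GRCm38.p6) and matched by symbol for 25 of the 34 genes. The core of the response element, searched as GAAANNGAA on both strands with overlaps allowed, was present in 14 of the 25 (56.0%), against 9.76% of 27025 genes with a window. At least 2 matches stood in 8 of the 25, against 0.736% of all genes. The gamma-activated site, another kind of interferon response motif, searched as TTCNNNGAA on both strands, was present in 5 of the 25, against 9.55% of all genes. The 6 sequences shown are the 250 bases before the start site, 5′ to 3′ on the gene's strand, and were picked after matches and expression values had been seen. Isg15 (chr4:156200819-156201068, minus strand), Ifit3 (chr19:34583279-34583528, plus strand), Oas1a (chr5:120907526-120907775, minus strand) and Bst2 (chr8:71537473-71537722, minus strand) hold several matches of GAAANNGAA, set in capitals. Irf1 (chr11:53769764-53770013, plus strand) holds no such match, and its capitals mark TTCNNNGAA. Zc3hav1 (chr6:38354604-38354853, minus strand) holds neither and has no capitals.
Isg15: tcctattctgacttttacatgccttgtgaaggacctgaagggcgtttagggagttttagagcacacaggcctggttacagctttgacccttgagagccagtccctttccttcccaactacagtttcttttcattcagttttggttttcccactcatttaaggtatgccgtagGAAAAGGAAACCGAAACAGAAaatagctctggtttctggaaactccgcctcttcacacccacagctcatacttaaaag
Ifit3: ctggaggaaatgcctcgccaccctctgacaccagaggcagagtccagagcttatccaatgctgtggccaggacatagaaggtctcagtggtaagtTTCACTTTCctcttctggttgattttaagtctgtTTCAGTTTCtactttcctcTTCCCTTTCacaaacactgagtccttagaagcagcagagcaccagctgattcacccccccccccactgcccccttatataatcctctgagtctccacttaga
Oas1a: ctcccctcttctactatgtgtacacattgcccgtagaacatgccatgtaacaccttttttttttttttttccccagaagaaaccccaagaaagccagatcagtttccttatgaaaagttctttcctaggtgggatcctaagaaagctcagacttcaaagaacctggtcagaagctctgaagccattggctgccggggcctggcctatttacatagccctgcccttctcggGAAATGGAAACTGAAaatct
Bst2: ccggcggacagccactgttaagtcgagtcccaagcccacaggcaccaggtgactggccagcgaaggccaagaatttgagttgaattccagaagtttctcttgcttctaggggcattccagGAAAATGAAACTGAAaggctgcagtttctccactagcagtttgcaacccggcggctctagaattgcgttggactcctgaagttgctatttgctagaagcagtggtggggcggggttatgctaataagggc
Irf1: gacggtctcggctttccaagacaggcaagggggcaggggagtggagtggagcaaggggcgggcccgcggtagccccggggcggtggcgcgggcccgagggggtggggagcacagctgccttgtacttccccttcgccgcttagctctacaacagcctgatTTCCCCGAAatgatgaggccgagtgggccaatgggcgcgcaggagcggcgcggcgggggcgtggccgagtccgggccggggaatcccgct
Zc3hav1: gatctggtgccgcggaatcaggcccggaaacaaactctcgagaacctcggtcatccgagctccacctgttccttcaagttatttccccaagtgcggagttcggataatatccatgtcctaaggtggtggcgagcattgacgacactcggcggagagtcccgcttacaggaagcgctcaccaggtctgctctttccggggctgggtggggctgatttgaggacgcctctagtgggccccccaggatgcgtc

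Total counts lay between 18417255 and 27257703 per library, except in the CKI libraries of BS53958 (11684983) and BS53965 (2884130). Levels are given as CPM, counts relative to the TMM-scaled size of the library, and a value with its error is a log2 change ± SE from edgeR's quasi-likelihood test (n = 3 libraries per group). A gene was called where its p, adjusted by Benjamini-Hochberg over every tested gene, was under 0.05. Where values are said not to overlap between groups, the share of all genes for which that holds was not counted. The targeted gene was lower in Arid1a KO vehicle lines (96.1, 69.6 and 75.96 CPM, against 128, 132 and 136 CPM in Braf lines; log2 change -0.71 ± 0.17, adjusted p = 0.0325) and in Smarcb1 KO vehicle lines (0.0475, 1.16 and 0.172 CPM, against 71.6, 85.1 and 67.9 CPM in Braf lines; log2 change -7.34 ± 0.86, adjusted p = 7.72e-05). Counts of Arid2 did not separate the lines labelled Arid2 KO (106, 78.2 and 97.8 CPM) from Braf lines (87.9, 108 and 96.5 CPM; log2 change -0.05 ± 0.24, adjusted p = 0.969), so these counts do not check that label. Thyroid follicular markers summed to 33.1 to 450.0 CPM in vehicle lines, against 229500 to 348200 CPM in WT libraries. The sources used here do not say how reads were counted that match close copies (Oas1a, Oasl1, Oasl2, Ifit and Gbp genes) or the ends of neighbours (Rsad2 and Cmpk2, Parp9 and Dtx3l), so values of these genes are uncertain to that extent.

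A single line, Arid1a KO BA45198, held high levels of nearly every interferon response gene in vehicle. Among the 12 vehicle lines it had the highest value for 29 of 33 members, whereas it was the highest line for 9.29% of all 16821 genes. Its median member stood at a log2(CPM + 0.5) of 6.26, while the other 11 vehicle lines lay between 0.65 and 3.13. The exceptions were Irf1, Gbp2, Oasl1 and Mx1, each with a higher value in at least 1 other line. Only this line had all 33 members over 1 CPM, against 17 to 27 members in the other vehicle lines. These are descriptions of 1 library with no replicate.

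**Figure D1:**
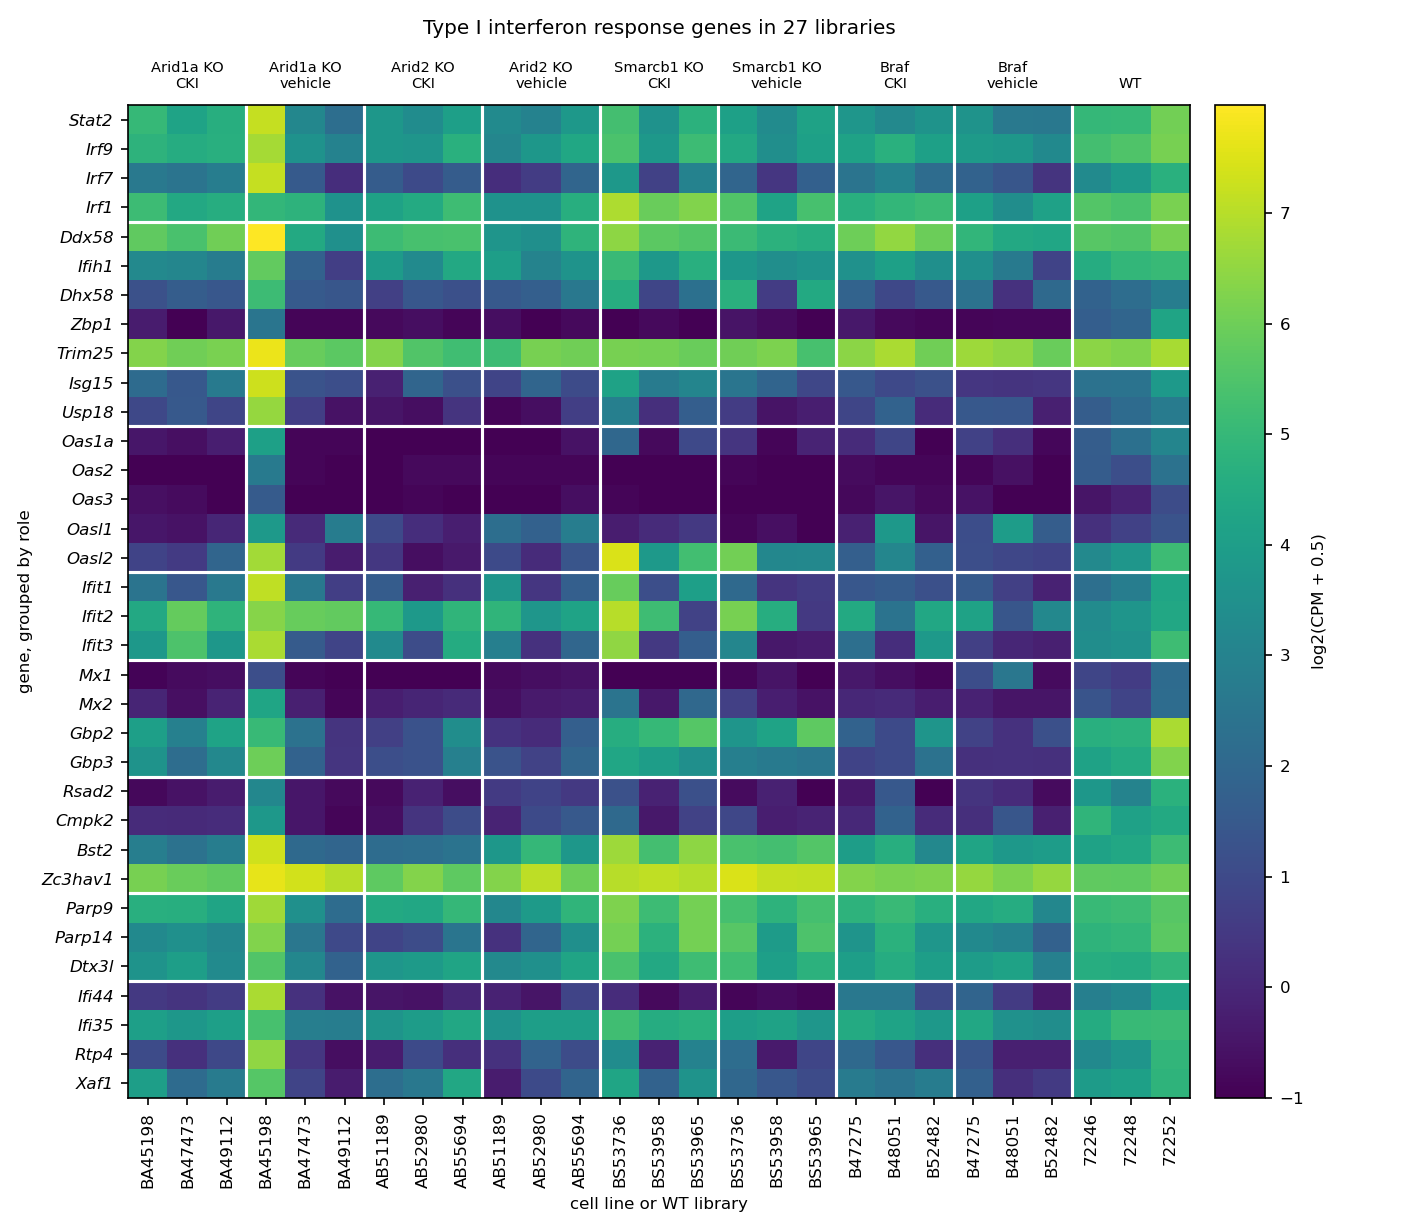
Levels of the 34 members as log2(CPM + 0.5), 1 column per library, genes down the page by role, with CKI columns left of vehicle columns in each genotype and WT at the right. The vehicle column of Arid1a KO BA45198 is bright for nearly all genes, with a median of 6.26 against 0.65 to 3.13 in the other vehicle lines.

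Stat2 and Irf9, partners in the interferon-activated complex, were among the genes high in that line. Irf9 had 108 CPM in BA45198, with 11.5 and 7.34 CPM in BA47473 and BA49112. It had 8.23, 13.1 and 19.96 CPM in lines labelled Arid2 KO, 20.9, 10.2 and 16.6 CPM in Smarcb1 KO lines and 14.3, 13.04 and 9.13 CPM in Braf lines. The BA45198 value lay above all 11 others, which overlapped between genotypes. Irf1 had 29.99 CPM in BA45198, with 27.4 and 11.5 CPM in BA47473 and BA49112. It had 11.5, 11.4 and 24.02 CPM in lines labelled Arid2 KO, 46.1, 18.1 and 40.7 CPM in Smarcb1 KO lines and 16.7, 10.1 and 17.1 CPM in Braf lines. Irf1, a transcription factor that interferon gamma also induces, was higher in BS53736 and BS53965 than in BA45198. Stat2 reached 146 CPM in BA45198, and the other vehicle lines spread from 4.22 to 17.5 CPM. Irf7, which drives interferon gene transcription, reached 145 CPM there, and the other vehicle lines spread from 0.616 to 3.28 CPM.

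Sensors of foreign nucleic acid were also highest in BA45198, while the next highest line differed from gene to gene. Ddx58 had 251 CPM in BA45198, with 21.5 and 10.8 CPM in BA47473 and BA49112. It had 12.4, 10.7 and 27.8 CPM in lines labelled Arid2 KO, 34.2, 26.7 and 23.6 CPM in Smarcb1 KO lines and 29.2, 20.6 and 19.4 CPM in Braf lines. Ddx58 encodes RIG-I, a sensor of viral RNA ends, and its 11 other values overlapped between genotypes. Trim25 had 210.5 CPM in BA45198, with 58.1 and 51.8 CPM in BA47473 and BA49112. It had 34.7, 70.2 and 64.2 CPM in lines labelled Arid2 KO, 65.1, 72.9 and 40.9 CPM in Smarcb1 KO lines and 101, 88.99 and 60.8 CPM in Braf lines. Trim25 encodes a ubiquitin ligase that acts on RIG-I, and its next highest value was in the Braf line B47275. Ifih1 (MDA5) had 55.7 CPM in BA45198 and 1.07 to 15.9 CPM in the other vehicle lines. Dhx58 (LGP2) had 35.2 CPM there, and BS53736 and BS53965 came near it with 25.7 and 21.2 CPM. Zbp1, a sensor of Z-form nucleic acid, had 5.06 CPM in BA45198 and at most 0.19 CPM in every other vehicle line.

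Isg15 had 157 CPM in BA45198, with 1.97 and 1.75 CPM in BA47473 and BA49112. It had 1.28, 3.33 and 1.59 CPM in lines labelled Arid2 KO, 5.17, 3.201 and 1.38 CPM in Smarcb1 KO lines and 0.8295, 0.773 and 0.825 CPM in Braf lines. Isg15, a ubiquitin-like protein that is attached to other proteins, was thus low in 11 of the 12 lines. Usp18 had 92.7 CPM in BA45198, with 1.08 and 0.171 CPM in BA47473 and BA49112. It had 0.04403, 0.125 and 1.09 CPM in lines labelled Arid2 KO, 0.997, 0.194 and 0.344 CPM in Smarcb1 KO lines and 2.26, 2.22 and 0.361 CPM in Braf lines. Usp18 removes ISG15 from its targets and dampens the interferon receptor, and its other 11 values were at most 2.26 CPM.

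OAS enzymes make oligoadenylates that activate RNase L, an activity that mouse Oasl1 lacks. Oasl2 had 106 CPM in BA45198, with 0.942 and 0.299 CPM in BA47473 and BA49112. It had 1.54, 0.584 and 2.05 CPM in lines labelled Arid2 KO, 67.1, 8.34 and 8.697 CPM in Smarcb1 KO lines and 1.75, 1.39 and 1.24 CPM in Braf lines. Smarcb1 KO lines, BS53736 above all, stood above the other lines except BA45198. Oasl1 had 14.1 CPM in BA45198, with 0.538 and 6.36 CPM in BA47473 and BA49112. It had 4.18, 2.92 and 6.47 CPM in lines labelled Arid2 KO, 0.0475, 0.145 and 0 CPM in Smarcb1 KO lines and 1.66, 15.2 and 2.63 CPM in Braf lines. Oasl1 was highest in the Braf line B48051 and near 0 in all 3 Smarcb1 KO lines. Oas1a, Oas2 and Oas3 had 16.7, 5.88 and 2.48 CPM in BA45198, and at most 1.15, 0.155 and 0.184 CPM in the other vehicle lines.

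IFIT proteins bind viral RNA that lacks host cap marks. Ifit2 had 81.7 CPM in BA45198, with 59.4 and 55.6 CPM in BA47473 and BA49112. It had 28.8, 12.6 and 18 CPM in lines labelled Arid2 KO, 69.5, 23.3 and 0.904 CPM in Smarcb1 KO lines and 17.5, 2.16 and 8.72 CPM in Braf lines. Ifit2 was high in all 3 Arid1a KO lines, though BS53736 lay between them. Ifit3 had 113 CPM in BA45198, with 2.51 and 1.28 CPM in BA47473 and BA49112. It had 6.78, 0.709 and 3.37 CPM in lines labelled Arid2 KO, 8.26, 0.242 and 0.301 CPM in Smarcb1 KO lines and 1.11, 0.464 and 0.361 CPM in Braf lines. Ifit3 outside BA45198 was highest in BS53736 and AB51189. Ifit1 had 138 CPM in BA45198, and the others spread from 0.413 to 12.4 CPM.

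Gbp2 had 32.3 CPM in BA45198, with 4.67 and 0.768 CPM in BA47473 and BA49112. It had 0.749, 0.584 and 2.78 CPM in lines labelled Arid2 KO, 12.3, 17.8 and 53.3 CPM in Smarcb1 KO lines and 1.198, 0.721 and 1.81 CPM in Braf lines. Gbp2, a guanylate-binding GTPase, was highest in BS53965, above BA45198. Gbp3 had 63.9 CPM in BA45198, with 3.05 and 0.811 CPM in BA47473 and BA49112. It had 1.94, 1.21 and 3.42 CPM in lines labelled Arid2 KO, 6.88, 5.87 and 5.25 CPM in Smarcb1 KO lines and 0.691, 0.721 and 0.671 CPM in Braf lines. Every Smarcb1 KO value of Gbp3 lay above every Braf value, while the Arid1a KO lines spread widely. The dynamin-like GTPase Mx2 had 19.1 CPM in BA45198 and 0.0427 to 1.14 CPM in the others. Mx1 was highest in the Braf line B48051 (5.46 CPM), followed by BA45198 (1.70 CPM) and B47275 (1.66 CPM).

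Zc3hav1 had 198 CPM in BA45198, with 163 and 129 CPM in BA47473 and BA49112. It had 78.5, 135 and 62.2 CPM in lines labelled Arid2 KO, 176, 145 and 140.2 CPM in Smarcb1 KO lines and 94.6, 73.99 and 94.05 CPM in Braf lines. Zc3hav1 encodes ZAP, which binds CpG-rich viral RNA, and all Arid1a KO and Smarcb1 KO values lay above all Braf values. Bst2 had 161 CPM in BA45198, with 3.72 and 3.33 CPM in BA47473 and BA49112. It had 12.9, 30.7 and 12.99 CPM in lines labelled Arid2 KO, 42.1, 38.95 and 47.1 CPM in Smarcb1 KO lines and 18.6, 13.2 and 15.1 CPM in Braf lines. Bst2 (tetherin), which holds budding virus at the cell surface, was lower in BA47473 and BA49112 than in any other vehicle line. Rsad2 (viperin) and its neighbour Cmpk2, a nucleotide kinase, had 8.36 and 13.3 CPM in BA45198, and at most 1.25 and 2.32 CPM in the others.

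Parp9 had 104 CPM in BA45198, with 10.9 and 3.97 CPM in BA47473 and BA49112. It had 8.41, 14.2 and 28.5 CPM in lines labelled Arid2 KO, 40.2, 27.2 and 40.1 CPM in Smarcb1 KO lines and 20.6, 23.03 and 8.51 CPM in Braf lines. Parp9 works in a complex with Dtx3l, a ubiquitin ligase. Dtx3l had 46.5 CPM in BA45198, with 8.34 and 3.07 CPM in BA47473 and BA49112. It had 8.76, 10.97 and 18.5 CPM in lines labelled Arid2 KO, 37.03, 16.2 and 26.4 CPM in Smarcb1 KO lines and 15.2, 17.7 and 6.96 CPM in Braf lines. Both genes had their next highest value in BS53736. Parp14, a related ADP-ribosyltransferase, had 76.2 CPM in BA45198 and 0.705 to 49.0 CPM in the others. Ifi35 had 41.1 CPM in BA45198, with 6.73 and 6.53 CPM in BA47473 and BA49112. It had 11.4, 15.9 and 15.7 CPM in lines labelled Arid2 KO, 15.9, 17.6 and 12.7 CPM in Smarcb1 KO lines and 20.2, 11.03 and 10.1 CPM in Braf lines. Ifi35 encodes a protein that binds NMI, and its other 11 values lay within 6.53 to 20.2 CPM. Xaf1 had 48.1 CPM in BA45198, with 1.301 and 0.299 CPM in BA47473 and BA49112. It had 0.308, 1.54 and 3.24 CPM in lines labelled Arid2 KO, 3.51, 2.18 and 1.59 CPM in Smarcb1 KO lines and 2.903, 0.6699 and 0.929 CPM in Braf lines. Xaf1, an antagonist of the apoptosis inhibitor XIAP, was at most 3.51 CPM in every line but BA45198. Ifi44 and Rtp4, also induced by interferon, had 115 and 89.5 CPM in BA45198, and at most 3.23 and 4.08 CPM in the others.

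**Figure D2:**
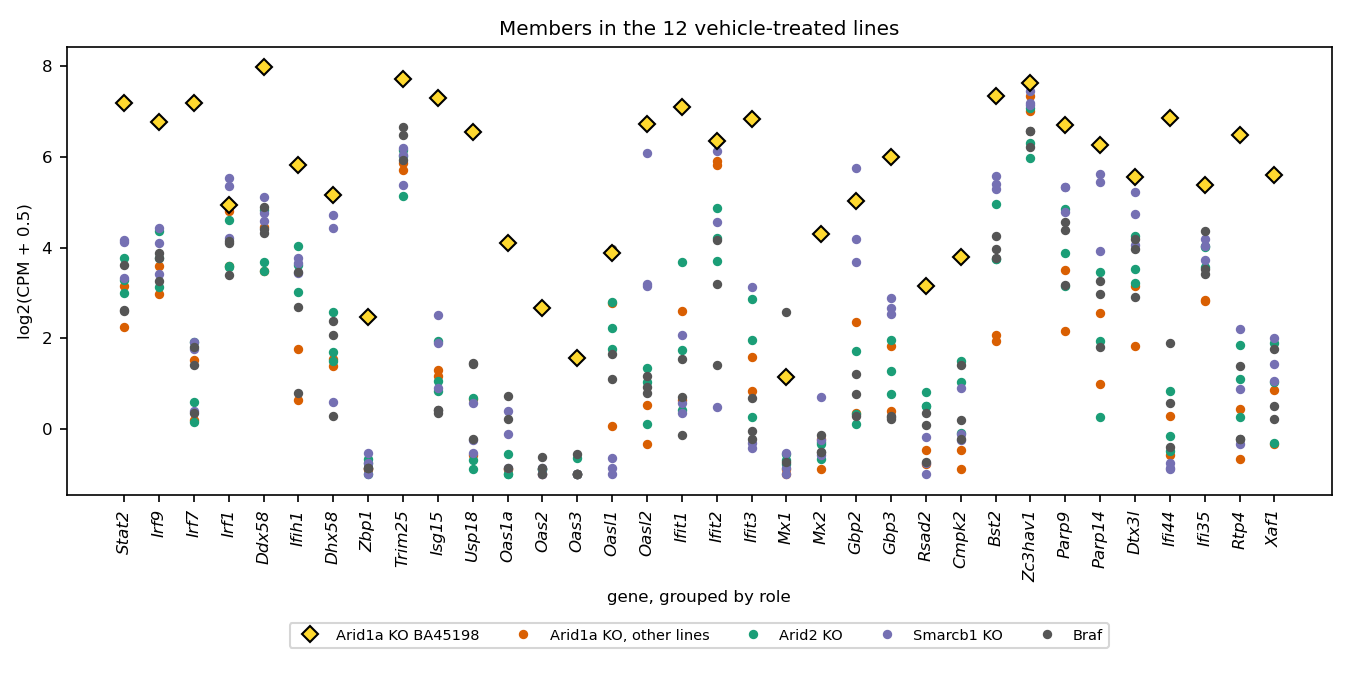
Levels of the 34 members in the 12 vehicle-treated lines, as log2(CPM + 0.5), 1 point per line, genes grouped by role. BA45198 (diamonds) is the highest line for 29 of the 33 members tested over all libraries. Oasl1 and Mx1 in B48051, Gbp2 in BS53965 and Irf1 in 2 Smarcb1 KO lines lie above it.

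Interferon ligand genes gave almost no reads. The 19 ligand genes in the table gave 7 counts in BA45198 vehicle, 5 of them from Ifnb1, and 0 to 2 counts in each other vehicle line. Under CKI the same line again gave 7 counts, with 1 from Ifnb1, and AB52980 also reached 7. Leukocyte markers summed to 5.88 CPM in BA45198, within the 3.57 to 15.7 CPM of all vehicle lines, and Ptprc, which marks all leukocytes, was at 0.155 CPM there. Fibroblast markers summed to 3763 CPM in BA45198, the highest of the vehicle lines, and to 1981 and 1354 CPM in BA47473 and BA49112. Epithelial markers summed to 338.3 CPM in BA45198, and to 329.4 and 316.2 CPM in BA47473 and BA49112. The part of these marker levels in the interferon gene levels was not tested.

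Against Braf alone in vehicle, 3 of 31 tested members (9.68%) rose in Arid1a KO lines and none fell, while 3.63% of all 15634 genes were called. These were Isg15 (log2 change 6.05 ± 1.38, adjusted p = 0.0252), Gbp3 (log2 change 5.02 ± 1.17, adjusted p = 0.0277) and Zc3hav1 (log2 change 0.902 ± 0.23, adjusted p = 0.0396), with values per line as given above. The median of the 31 members was 2.56, with 30 of them above 0, against a median of -0.006 over all genes. Without BA45198, singled out after its values were seen, the median became -0.90, no member rose and Bst2 fell (log2 change -2.15 ± 0.47, adjusted p = 0.0437), while 0.975% of all genes were called. The change of Zc3hav1 was then 0.735 ± 0.251 (adjusted p = 0.164), not far from its size with the line, and both remaining Arid1a KO values lay above every Braf value. No member was called without B47275 or without B48051. In the full comparison, 2 of 10 fibroblast markers rose (Dcn, log2 change 7.08, and Col1a2, 7.64) and 1 of 10 epithelial markers fell (Esrp2, -8.82), and their part in the result was not tested.

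Lines labelled Arid2 KO gave 0 calls of 31 against Braf in vehicle by edgeR, with 1 member at an unadjusted p under 0.05 (Mx1, lower), against 12.4% of all genes, and 0 by DESeq2. Of all genes, 0.0512% were called, and the median member change was 0.11.

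In Smarcb1 KO vehicle lines, 3 members rose and 1 fell, 4 of 31 (12.9%), against 18.1% of all genes called, so the share of members was no higher than the background. Irf1 (log2 change 1.24 ± 0.42, adjusted p = 0.0495), Gbp2 (log2 change 4.47 ± 1.22, adjusted p = 0.0191) and Zc3hav1 (log2 change 0.81 ± 0.23, adjusted p = 0.0244) rose, with each Smarcb1 KO value above each Braf value. Oasl1 fell (log2 change -6.56 ± 1.65, adjusted p = 0.0125), with 4 reads in all over the 3 Smarcb1 KO libraries, so its fitted change depends on the prior count. A single member was called without B47275, without B48051, without BS53736 and without BS53965. Of the 7 endothelial markers tested in the same comparison, Pecam1 and Cdh5 rose, the other 5 had changes below 0, and the median was -0.745. Their summed level was 15.0, 1.84 and 667 CPM in Smarcb1 KO lines, against 4.70, 2.42 and 5.26 CPM in Braf lines, so that BS53965 held most of it. Of the fibroblast markers 2 of 10 fell (Col1a1 and Col3a1), of the epithelial markers 2 of 10 (Krt18 and Esrp2), of the thyroid follicular markers 1 of 7 (Hhex), and of the leukocyte markers 0 of 7 were called. The part of these markers in the result was not tested. The Arid1a KO, Arid2 KO and Smarcb1 KO comparisons share the Braf libraries.

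Under CKI the median member change against Braf was -0.29 in Arid1a KO lines, -0.44 in lines labelled Arid2 KO and 1.05 in Smarcb1 KO lines. Arid1a KO lines gave 0 calls against Braf by edgeR, with 1 member (Oasl1, lower) at an unadjusted p under 0.05, against 14.6% of all genes, and Oasl1 alone called by DESeq2, while 0.736% of all genes were called. Lines labelled Arid2 KO gave 0 calls by edgeR, with 4 members lower at an unadjusted p under 0.05 (Oas1a, Oasl2, Parp14 and Ifi44), near the 10.5% of all genes at that p. DESeq2 called 0 members there, and 0.064% of all genes were called by edgeR. In Smarcb1 KO lines 2 of 31 members rose, Irf1 and Zc3hav1, against 23.1% of all genes called. Irf1 had 118, 60.6 and 77.5 CPM in Smarcb1 KO lines under CKI, against 24.9, 30.5 and 34.3 CPM in Braf lines under CKI (log2 change 1.498 ± 0.43, adjusted p = 0.0199). Zc3hav1 had 128, 139.9 and 124 CPM in Smarcb1 KO lines under CKI, against 78.3, 71.96 and 74.97 CPM in Braf lines under CKI (log2 change 0.79 ± 0.23, adjusted p = 0.0231). Neither gene overlapped between the groups, but the share of all genes without overlap was not counted. The count was 0 without B47275, and 1 when B48051, B52482, BS53736 or BS53958 was left out. Line BS53736 was the highest of the 12 CKI lines for 21 of 33 members, against 11.5% of all genes, with a median level of 4.604 against 1.16 to 3.48 in the other CKI lines.

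CKI values lay below vehicle values for nearly all members in BA45198, and in no other line. In BA45198, 1 of 33 members was higher under CKI than in vehicle and 32 were lower, with a median difference of -3.02 in log2(CPM + 0.5). In the 2 other Arid1a KO lines 22 and 29 members were higher, with medians of 0.23 and 1.44. The lines labelled Arid2 KO were divided (16, 16 and 15 higher, medians 0, 0 and -0.12). Members were higher in 28, 25 and 27 cases in Smarcb1 KO lines, with medians of 1.18, 0.36 and 0.95, and in 22, 29 and 25 cases in Braf lines, with medians of 0.15, 0.68 and 0.84. Over all genes the share that was higher under CKI lay between 39.3% and 50.9% in each line. Isg15 in BA45198 had 3.89 CPM under CKI and 157 CPM in vehicle, and Usp18 had 1.44 CPM under CKI and 92.7 CPM in vehicle. Both CKI values lay within the range of the other CKI lines.

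**Figure D3:**
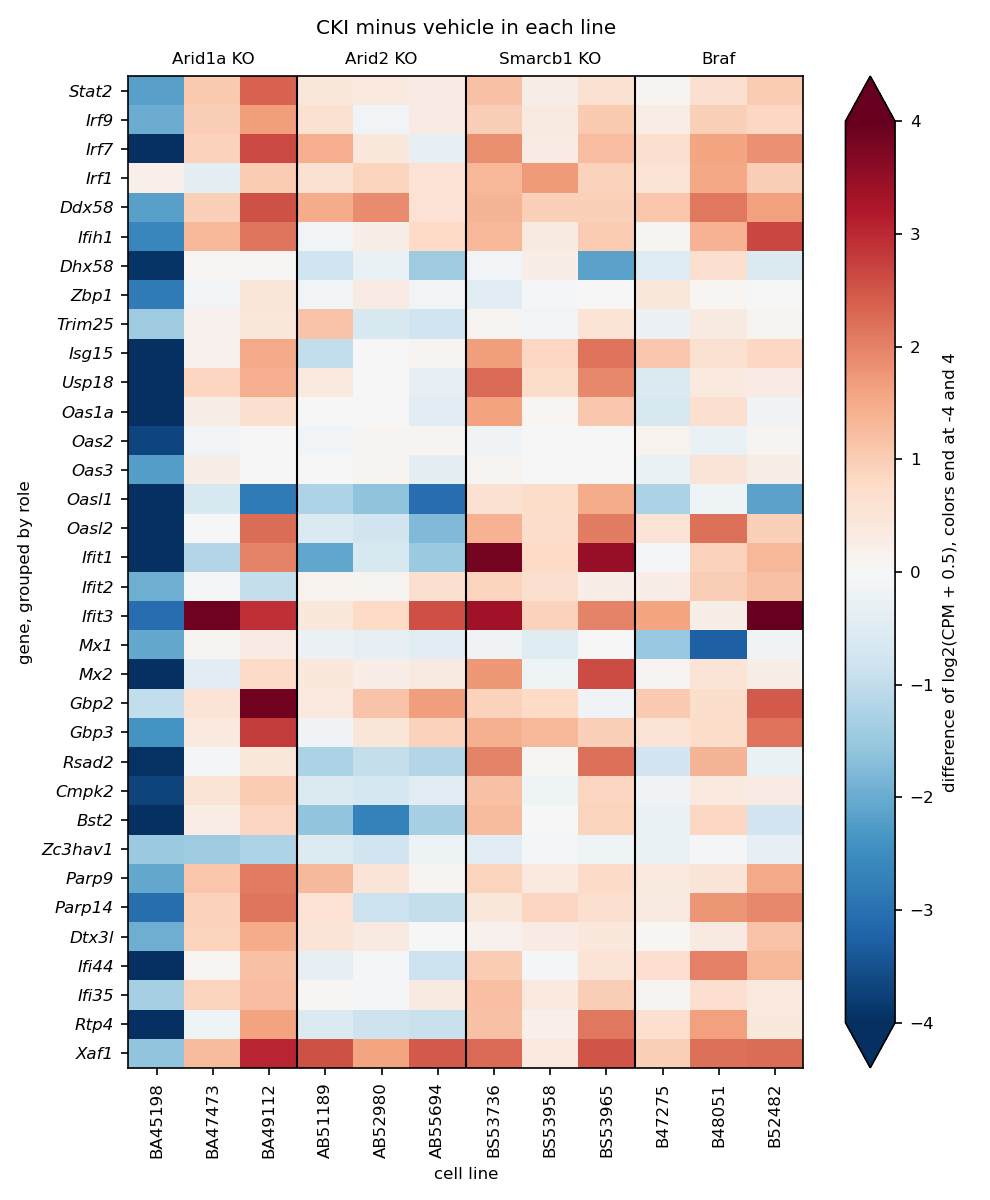
Difference of log2(CPM + 0.5) between CKI and vehicle for each of 34 members (down the page, grouped by role) in each of 12 lines, with red for higher under CKI, blue for lower, and colors ending at -4 and 4. BA45198 is blue in 32 of 33 members tested over all libraries, and Zc3hav1 is blue in every line.

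Within Arid1a KO lines, 4 of 31 members (12.9%) fell under CKI and none rose, near the 13.9% of all genes called. Zc3hav1 had 70.1, 60.6 and 54.1 CPM under CKI, against 198, 163 and 129 CPM in vehicle (log2 change -1.39 ± 0.23, adjusted p = 0.00234), with no overlap. Bst2 had 6.72, 4.73 and 6.47 CPM under CKI, against 161, 3.72 and 3.33 CPM in vehicle (log2 change -3.22 ± 0.99, adjusted p = 0.0385), and all of its CKI values but that of BA45198 were the higher of the line's pair. Oasl1 had 0.227, 0.185 and 0.468 CPM under CKI, against 14.1, 0.538 and 6.36 CPM in vehicle (log2 change -4.54 ± 1.45, adjusted p = 0.04502), lower in each line. Ifi44 had 0.907, 0.788 and 1.02 CPM under CKI, against 115, 0.718 and 0.171 CPM in vehicle (log2 change -5.398 ± 1.62, adjusted p = 0.0356), lower only in BA45198. With the cell line as a block, which uses the pairing of the libraries, 3 members fell (Oasl1, Ifit2 with -0.98, and Zc3hav1), against 32.3% of all genes, and Bst2 and Ifi44 were not called. Without BA45198, Ddx58 rose (log2 change 1.73 ± 0.45, adjusted p = 0.0481) and Zc3hav1 fell (log2 change -1.35 ± 0.28, adjusted p = 0.0242), with 3.38% of all genes called, and the median member change was 1.34. Without BA47473 and without BA49112, 1 member was called in each case. In the blocked comparison without BA45198, 10 members rose and Zc3hav1 fell, against 20.1% of all genes, but this rests on 2 lines. The Zc3hav1 call held in all 13 alternatives run.

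In Braf lines CKI gave 0 calls by edgeR, with 3 members at an unadjusted p under 0.05 (Irf1 and Ddx58 higher, Mx1 lower), against 11.2% of all genes, 0 by DESeq2, and 0% of all genes called. With the cell line as a block the count remained 0, against 2.48% of all genes, and without BA45198 in that blocked model Ddx58 rose (log2 change 1.63 ± 0.34, adjusted p = 0.0417), against 2.24%. Lines labelled Arid2 KO gave 0 calls by edgeR, with 2 members lower at an unadjusted p under 0.05 (Bst2 and Zc3hav1), against 13.6% of all genes, 0 by DESeq2, and 0.141% of all genes called. With the block, Zc3hav1 fell there (log2 change -0.51 ± 0.13, adjusted p = 0.04399), against 6.27% of all genes, and without BA45198 as well Ddx58 and Xaf1 rose and Bst2 fell (log2 change -1.98 ± 0.38, adjusted p = 0.0213), against 5.45%. Smarcb1 KO lines gave 0 calls by edgeR, with 2 members higher at an unadjusted p under 0.05 (Irf1 and Ifit1), against 8.53% of all genes, 0 by DESeq2, and 0.032% of all genes called. With the block, Irf1 rose there (log2 change 1.35 ± 0.27, adjusted p = 0.0460), against 1.06% of all genes. Without BA45198 in that blocked model 0 members were called by edgeR, with 20 higher at an unadjusted p under 0.05, against 7.82% of all genes higher at that p, and 0.804% of all genes were called.

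Over all 12 lines, Irf1 rose under CKI and Zc3hav1 and Mx1 fell, 3 of 31 members (9.68%), fewer than the 27.2% of all genes called. Irf1 (log2 change 0.81 ± 0.21, adjusted p = 0.009403) was higher under CKI in 11 of 12 lines, with BA47473 the exception (20.8 CPM under CKI and 27.4 CPM in vehicle). Its CKI values were 34.7, 20.8 and 23.8 CPM in Arid1a KO lines and 17.7, 21.7 and 36.04 CPM in lines labelled Arid2 KO, beside the Smarcb1 KO and Braf values given above. Zc3hav1 (log2 change -0.60 ± 0.12, adjusted p = 0.00151) was lower under CKI in all 12 lines and had 53.9, 78.6 and 53.5 CPM under CKI in lines labelled Arid2 KO. The difference of log2(CPM + 0.5) ran from -1.49 in BA45198 to -0.04 in B48051, and all 3 Arid1a KO lines (-1.49, -1.42 and -1.24) lay beyond every other line. Both calls held in all 21 alternatives run. Mx1 had at most 7 reads in any CKI library, against up to 106 reads in vehicle lines, and its call (log2 change -3.79 ± 1.05, adjusted p = 0.0175) was lost without BA45198 (adjusted p = 0.0730), without BS53958 and with the cell line as a block (0.0553).

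**Figure D4:**
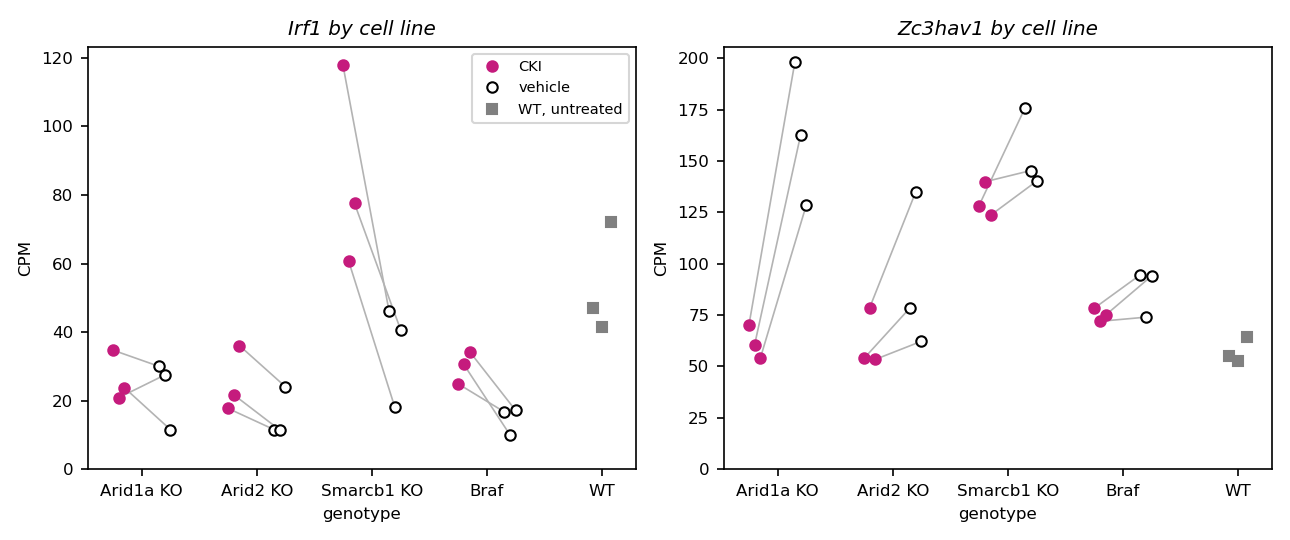
Irf1 and Zc3hav1 in CPM by genotype, with CKI (filled) left of vehicle (open), a grey line joining the libraries of each cell line, and WT libraries at the right. Irf1 is higher under CKI in 11 of 12 lines and Zc3hav1 is lower in all 12.

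The pooled CKI comparison changed most when BA45198 was set aside. Without this line, which was set aside after its values were seen, 12 members rose and Zc3hav1 fell, 13 of 31, against 22.1% of all genes. The median member change was then 0.77 in place of -0.10. Without the line, 4 of 10 fibroblast markers rose under CKI (median 2.62, 9 above 0), 1 of 9 leukocyte markers rose, 2 of 7 thyroid follicular markers rose and 1 fell, and none of 7 endothelial or 10 epithelial markers was called by edgeR. Over all 12 lines, fibroblast markers summed to 15.1 to 10020 CPM under CKI, against 5.98 to 3763 CPM in vehicle, and leukocyte markers to 3.46 to 113 CPM under CKI, with the highest sum in B47275, against 3.57 to 15.7 CPM in vehicle. The part of these markers in the result was not tested. With the cell line as a block and all 12 lines, 5 members rose (Irf1, Ddx58, Ifit3, Gbp2 and Xaf1) and Zc3hav1 fell, against 42.9% of all genes. With the block and without BA45198, 17 members rose, against 19.3% of all genes rising, and Zc3hav1 fell, against 38.5% called in either direction. Ddx58 had 41.8 and 65.1 CPM under CKI in BA47473 and BA49112, 35.5, 40.7 and 41.3 CPM in lines labelled Arid2 KO, 87.9, 52.5 and 46.04 CPM in Smarcb1 KO lines and 63.1, 90.7 and 61.5 CPM in Braf lines. Each was above the vehicle value of its own line (log2 change 1.46 ± 0.18, adjusted p = 0.000481). Xaf1 had 3.85 and 6.09 CPM under CKI in BA47473 and BA49112, 4.19, 5.54 and 20.1 CPM in lines labelled Arid2 KO, 18.9, 3.05 and 11.6 CPM in Smarcb1 KO lines and 6.07, 4.83 and 6.26 CPM in Braf lines (log2 change 2.39 ± 0.35, adjusted p = 0.000989). Ifit3 had 43.7 and 13.1 CPM, 9.34, 1.61 and 22.6 CPM, 88.5, 0.906 and 2.67 CPM and 4.34, 0.625 and 14.01 CPM in the same groups (log2 change 2.702 ± 0.398, adjusted p = 0.00104). These 3 genes, Stat2 and Parp9 were higher under CKI in all 11 lines other than BA45198. The share of all genes higher in all 11 was not counted. The remaining members that rose in that model were Irf9, Irf7, Irf1, Ifih1, Isg15, Usp18, Gbp2, Gbp3, Parp14, Dtx3l, Ifi44 and Ifi35, with log2 changes from 0.599 (Dtx3l) to 1.54 (Gbp2). Stat2 (0.87) and Parp9 (0.96) fell within that range.

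The CKI response of each KO was also compared with that of Braf alone. By edgeR without the block, 0 members were called for Arid1a KO, with 13 lower at an unadjusted p under 0.05, against 5.12% of all genes at that p in either direction. Among the Arid1a KO lines, only BA45198 had a median CKI minus vehicle difference below 0 (-3.02), with 0.23 in BA47473 and 1.44 in BA49112. For Arid2 KO and for Smarcb1 KO 0 were called by edgeR, with 0 at an unadjusted p under 0.05, against 0.793% of all genes for Arid2 KO and 4.22% for Smarcb1 KO. DESeq2 called 0 in each, and 0% of all genes were called by edgeR in each. With the cell line as a block, Zc3hav1 fell more in Arid1a KO lines than in Braf lines (log2 change -1.17 ± 0.18, adjusted p = 0.0384), the single call among 31 members, against 0.147% of all genes. In that blocked model 2 members were lower at an unadjusted p under 0.05 for Arid1a KO, against 12.4% of all genes at that p in either direction. Without BA45198 in that model the Zc3hav1 difference was -1.12 ± 0.21 and was not called (adjusted p = 0.0894). In the blocked model 0 members were called by edgeR for Arid2 KO, with 0 at an unadjusted p under 0.05 (2.57% of all genes), against 0% of all genes called. For Smarcb1 KO 0 were called by edgeR, with 1 higher at an unadjusted p under 0.05 (9.08% of all genes), against 0.032% called.

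In Braf vehicle lines, 15 of 33 interferon genes fell against the WT libraries and Zc3hav1 rose, 16 calls in all (48.5%), near the 46.5% of all 16821 genes called (22.8% of all genes fell), and the median member change was -2.50. Leukocyte markers summed to 3.57 to 15.7 CPM in vehicle lines, against 1164 to 1798 CPM in WT libraries, with Ptprc at 19.01, 18.1 and 16.9 CPM and Cd74 at 539, 775 and 484 CPM in WT. Endothelial markers summed to 1.84 to 667 CPM in vehicle lines, against 651.1 to 931.2 CPM in WT libraries, and fibroblast markers to 5.98 to 3763 CPM in vehicle lines, against 2140 to 4180 CPM in WT libraries. All 10 endothelial and all 10 fibroblast markers were over 1 CPM in each WT library. Their part in the result was not tested, and in bulk RNA fewer cells of a type and less RNA per cell cannot be told apart. Tumor lines and WT libraries also differ at once in the labelled allele and treatment, and possibly as cultured cells against tissue. These differences cannot be told apart.

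Among transcription factors, Irf1 had 16.7, 10.1 and 17.1 CPM in Braf vehicle lines, against 47.1, 41.6 and 72.2 CPM in WT libraries (log2 change -1.87 ± 0.43, adjusted p = 0.00154), with no overlap. Irf9 had 14.3, 13.04 and 9.13 CPM in Braf vehicle lines, against 38.5, 45.2 and 69.4 CPM in WT libraries (adjusted p = 0.0193). Stat2 had 11.8, 5.62 and 5.57 CPM in Braf vehicle lines, against 30.8, 31.9 and 66.9 CPM in WT libraries (adjusted p = 0.0198). All 3 genes were highest in the third WT library. Of the sensors, Ifih1 had 10.5, 5.98 and 1.24 CPM in Braf vehicle lines, against 23.1, 30.5 and 32.7 CPM in WT libraries (adjusted p = 0.0453). Zbp1 had 0.0461, 0.0515 and 0.0516 CPM in Braf vehicle lines, against 2.75, 3.31 and 18.5 CPM in WT libraries (adjusted p = 0.00232), 3 reads in all in the Braf libraries. Zbp1 was thus near the limit of detection in the lines and measurable in each WT library. Isg15 had 0.8295, 0.773 and 0.825 CPM in Braf vehicle lines, against 4.66, 4.82 and 13.7 CPM in WT libraries (adjusted p = 0.0308). Oasl2 had 1.75, 1.39 and 1.24 CPM in Braf vehicle lines, against 8.96, 12.5 and 35.4 CPM in WT libraries (adjusted p = 0.0474). Oas2 had 0.0461, 0.155 and 0 CPM in Braf vehicle lines, against 2.54, 1.71 and 4.67 CPM in WT libraries (adjusted p = 0.0138). None of these genes overlapped between the groups, but the share of all genes without overlap was not counted.

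Ifit3 had 1.11, 0.464 and 0.361 CPM in Braf vehicle lines, against 10.1, 11.2 and 35.5 CPM in WT libraries (adjusted p = 0.0447). Gbp2 had 1.198, 0.721 and 1.81 CPM in Braf vehicle lines, against 24.7, 26.5 and 114 CPM in WT libraries (log2 change -5.47 ± 1.27, adjusted p = 0.00182). Gbp3 had 0.691, 0.721 and 0.671 CPM in Braf vehicle lines, against 17.5, 22.02 and 76.8 CPM in WT libraries (log2 change -5.79 ± 1.21, adjusted p = 0.000742). The guanylate-binding genes thus differed without overlap, which was not counted over all genes. Rsad2 had 0.783, 0.567 and 0.103 CPM in Braf vehicle lines, against 12.8, 7.57 and 26.3 CPM in WT libraries (log2 change -4.99 ± 1.58, adjusted p = 0.0144). Cmpk2 had 0.645, 2.16 and 0.361 CPM in Braf vehicle lines, against 29.1, 17.2 and 21.4 CPM in WT libraries (adjusted p = 0.0182). Zc3hav1 had 94.6, 73.99 and 94.05 CPM in Braf vehicle lines, against 54.9, 52.9 and 64.3 CPM in WT libraries (log2 change 0.61 ± 0.22, adjusted p = 0.0313). Zc3hav1 was the only member to rise. Rtp4 had 2.12, 0.361 and 0.361 CPM in Braf vehicle lines, against 9.06, 12.2 and 29.3 CPM in WT libraries (adjusted p = 0.0399). Xaf1 had 2.903, 0.6699 and 0.929 CPM in Braf vehicle lines, against 14.8, 16.5 and 27.9 CPM in WT libraries (adjusted p = 0.0226). Both were lower in every Braf line than in any WT library.

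The third WT library was the highest of the 3 WT libraries for 32 of 33 members, against 38.2% of all genes. Without it, 7 members fell and none rose against WT in Braf lines, and 37.7% of all genes were called. The count was 8 without B48051 and 5 without B52482. The calls of Irf1, Zbp1, Gbp2, Gbp3 and Rsad2 held in all alternatives run. Held least often were the calls of Ifih1, Ifit3 and Oasl2 (5 of 12 alternatives each) and of Zc3hav1 (4 of 12).

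For the vehicle lines of all 4 genotypes against WT, 15 members fell and Zc3hav1 rose, 16 calls in all (48.5%), fewer than the 60.8% of all genes called (33.5% of all genes fell). The median member change was -1.47. This comparison shares the Braf and WT libraries with the one before. Members that fell here and not in Braf lines alone were Oas1a (adjusted p = 0.0242), Mx1 (adjusted p = 0.0244), Ifi44 (adjusted p = 0.00513) and Ifi35 (adjusted p = 0.02898). Oas1a ran from 0 to 16.7 CPM in vehicle lines (median 0.117), against 2.64, 4.41 and 7.95 CPM in WT libraries, and Mx1 from 0 to 5.46 CPM (median 0.114), against 1.35, 1.003 and 3.92 CPM in WT libraries. Ifi44 ran from 0.0431 to 115 CPM in vehicle lines (median 0.327), against 6.84, 8.33 and 18.9 CPM in WT libraries, and Ifi35 from 6.53 to 41.1 CPM (median 14.2), against 22.4, 32.3 and 34.2 CPM in WT libraries. All 4 genes overlapped between the groups, through BA45198 for Oas1a, Ifi44 and Ifi35 and through B48051, BA45198 and B47275 for Mx1. BA45198 lay above all WT libraries for 27 of 34 members, Isg15 (157 CPM, against 4.66, 4.82 and 13.7 CPM in WT) and Stat2 among them. The share of all genes for which BA45198 did so was not counted. Without BA45198, 28 members fell and Zc3hav1 rose, against 58.9% of all genes called. Without the third WT library, 9 fell and Zc3hav1 rose (log2 change 1.102 ± 0.23, adjusted p = 0.000553), against 51.9% of all genes.

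**Figure D5:**
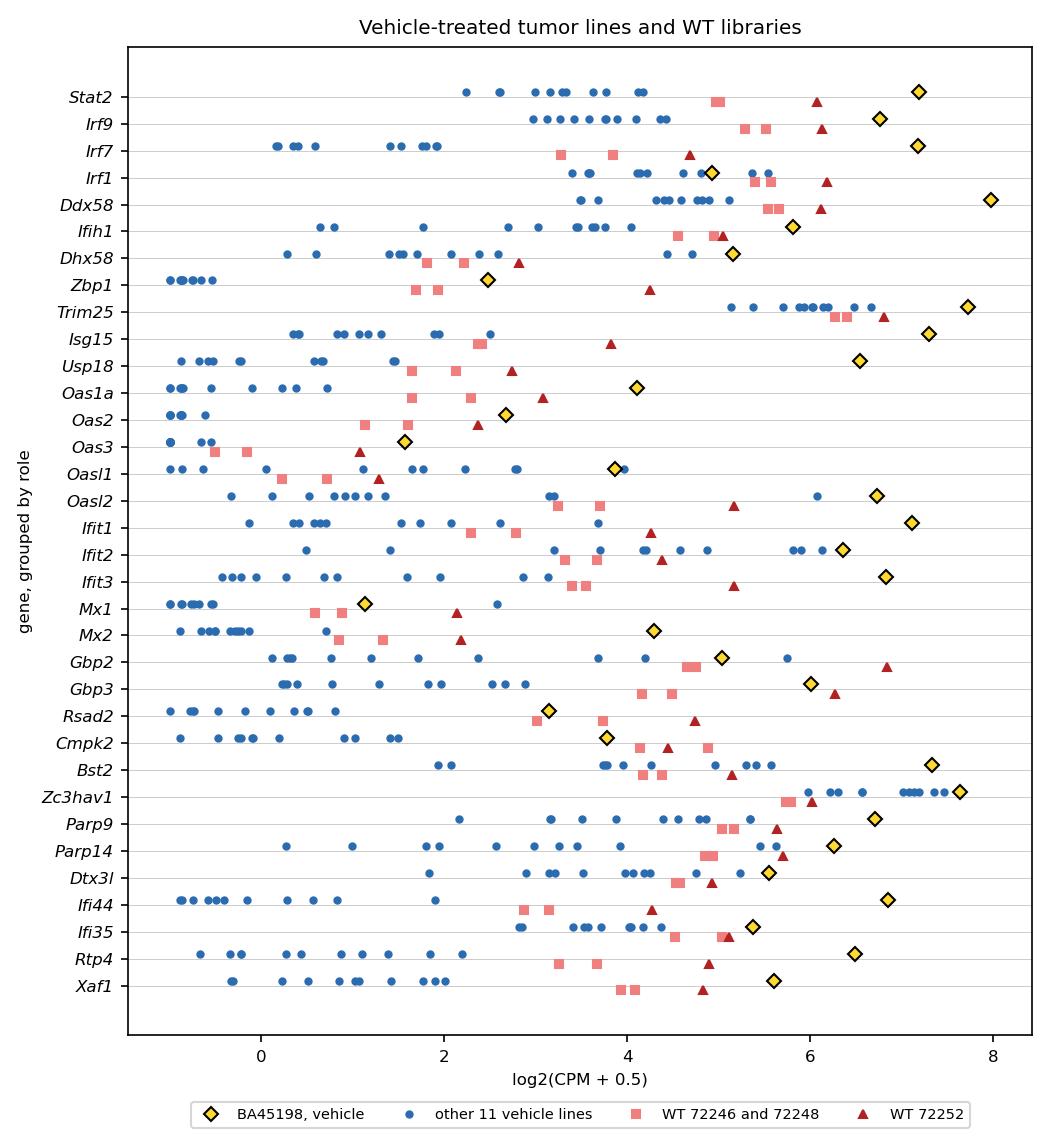
Levels of the 34 members as log2(CPM + 0.5) in the 12 vehicle-treated tumor lines and in the 3 WT libraries, genes down the page by role. For 29 of 34 members more lines than not lie below all WT libraries, while Zc3hav1 lies above them in 11 of 12 lines and Oasl1 in 7, and BA45198 lies above all WT libraries for 27 of 34 members. These counts were not made over all genes.

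Other genes of the pathway were taken from 3 lists. Of the list of interferon ligands, receptors and receptor kinases, 14 genes were tested. None was called by edgeR in Arid1a KO or in lines labelled Arid2 KO against Braf in vehicle, and 3 rose and 2 fell in Smarcb1 KO lines, against 18.1% of all genes called. Among these were Socs3, a brake on receptor signalling (2.74), Il28ra, a subunit of the interferon lambda receptor (-4.597), and Il10rb, its partner (-1.37). Socs1 (3.17) and Ifnar1, a subunit of the type I receptor (0.78), also rose in Smarcb1 KO lines. Ifnar1 had 119, 137 and 171 CPM in Arid1a KO vehicle lines and 78.99, 70.8 and 132 CPM in Braf lines, so BA45198 was the lowest of its genotype. That change was not called by edgeR (log2 change 0.60 ± 0.23, adjusted p = 0.158).

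Of 16 tested genes that sense nucleic acid upstream of interferon, 2 rose and 4 fell in Smarcb1 KO vehicle lines, against 18.1% of all genes called. Tmem173 (STING), the adaptor for cytosolic DNA sensing, was near 0 there, with 0, 1.07 and 0 CPM in Smarcb1 KO lines, against 75.8, 45.8 and 163 CPM in Braf lines (log2 change -8.05 ± 1.17, adjusted p = 0.000401). It had 119.7, 99.5 and 37.5 CPM in Arid1a KO lines and 112, 133 and 90.7 CPM in lines labelled Arid2 KO. Irf3, which STING activates, fell by little (-0.54) and Ikbke, a kinase of the same step, fell more (-3.59). Tmem173 remained low in Smarcb1 KO lines under CKI, with 0.0410, 0.906 and 0 CPM, against 40.8, 19.7 and 41.9 CPM in Braf lines under CKI (log2 change -6.62 ± 1.17, adjusted p = 0.00137).

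Of 58 tested further interferon-induced genes, 1 rose (Gbp7, 4.296) and 1 fell (Ifi205, -4.29) in Arid1a KO vehicle lines, against 3.63% of all genes called, with a median of 1.02 and 49 of 58 above 0. In vehicle the list summed to 5653 CPM in BA45198, and to 1220 and 1080 CPM in BA47473 and BA49112. It summed to 1533, 1227 and 1339 CPM in Braf lines. In Smarcb1 KO vehicle lines 7 rose and 6 fell of 58, near the 18.1% of all genes called, among them the immunoproteasome subunit Psmb9 (5.08), Ifi203 (5.43) and Ifi205 (-7.49). Against WT, 1 rose and 24 fell of 60 tested in Braf vehicle lines. Of all genes, 46.5% were called in either direction and 22.8% fell. Under CKI over all 12 lines 4 rose and 2 fell of 58, a smaller share than the 27.2% of all genes called, with Ifi203 (-1.75) and Rnf213 (-0.97) among those that fell. Without BA45198, 16 rose and 2 fell of 57, against 22.1% of all genes called. In the sensing list, 3 rose and 3 fell of 16 under CKI over all 12 lines, with a median of 0.017, against 27.2% of all genes called. Samhd1, which degrades nucleotides needed by viruses, was among those that rose (log2 change 1.48 ± 0.23, adjusted p = 0.000295).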

How the data were processed

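The deposited table holds raw counts by gene symbol that the authors made, with 1 column for each library. The submitters' processing notes name mm9, STAR 2.4, HTSeq 0.6.1 and DESeq2 without a role or order. Which annotation, strand setting and filters were used is not given in the sources used here. TRIzol extraction and a TruSeq kit are named in the labels' protocols.

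The counts were tested with edgeR 4.0.16 in R 4.3.3 (TMM scaling, filterByExpr by group, 2-sided quasi-likelihood F test, Benjamini-Hochberg adjustment). The 24 tumor line libraries shared 1 model, and comparisons with WT used all 27 libraries. Standard errors were derived from F and are approximate. Vehicle and CKI libraries of a line were paired by the line's name in the labels, and their deviations from the group means correlated at 0.246 to 0.779 in all 12 lines. With 3 lines per group, p-values measure the spread between lines. A level of 3 counts corresponds to 0.106 to 0.161 CPM in 25 libraries, 0.247 CPM in BS53958 under CKI and 0.891 CPM in BS53965 under CKI, and covers counting error only.

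Alternatives were other size factors, DESeq2 1.42.0, other filters, other sets of libraries, each line or WT library left out, and the cell line as a block. The block combined with a line left out was added after seeing the data. The procedure was tested on simulated data that gave every gene the same spread and held no deviating line. That test thus does not cover a line such as BA45198. All members found in the table are named, and 2 per role are given in every vehicle line. From the other lists, up to 3 called genes with the smallest adjusted p could be named per comparison. Ifnar1, Socs1 and the levels of Tmem173 outside Smarcb1 KO lines were chosen after their values were seen. Members and lists were chosen with earlier results of these data known.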

Additional observations from a re-analysis of the deposited data

Results flagged for a closer look

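The fall of Zc3hav1 under CKI differed between Arid1a KO and Braf lines by an interaction test in the model with the cell line as a block (log2 difference -1.17 ± 0.18, adjusted p = 0.0384 over all genes). The CKI minus vehicle difference of log2(CPM + 0.5) was -1.49, -1.42 and -1.24 in the 3 Arid1a KO lines, and -0.27, -0.04 and -0.33 in the 3 Braf lines. Without the block the same difference was not called, nor was it with the block and without BA45198 (-1.12 ± 0.21, adjusted p = 0.0894).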

How the results depend on the processing

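The calls of Zc3hav1 in Arid1a KO lines under CKI, and of Irf1 and Zc3hav1 under CKI over all 12 lines, held in every alternative run. Counts of called members moved as follows, and the cause was not tested. Except for the blocked counts, whose shares are given above, the share of all genes called in the same setting is not given. The counts thus do not show whether members moved more than all genes did. With DESeq2 the counts were 13 (Arid1a KO against Braf in vehicle), 7 (Smarcb1 KO in vehicle), 1 (Arid1a KO under CKI), 7 (Smarcb1 KO under CKI), 10 (CKI in Arid1a KO) and 6 (CKI over all lines). With only the compared groups they were 0 (Arid1a KO in vehicle), 1 (Smarcb1 KO under CKI) and 2 (CKI in Arid1a KO). With no filter on low counts, Smarcb1 KO under CKI gave 1, and with all 27 libraries CKI in Arid1a KO gave 7. Without BS53958 and BS53965 the counts were 0 (Smarcb1 KO in vehicle), 1 (Smarcb1 KO under CKI) and 2 (CKI in Arid1a KO). With the cell line as a replicate block they were 1 (Arid2 KO), 1 (Smarcb1 KO), 6 (all lines) and 1 (response of Arid1a KO), and with the block and without BA45198 they were 1 (Braf), 11 (Arid1a KO), 3 (Arid2 KO) and 18 (all lines). Leaving out each line in turn, the log2 change under CKI in Arid1a KO lines ran from -3.84 to 0.67 for Bst2 and from -6.08 to 1.02 for Ifi44. Both were above 0 without BA45198, the only Arid1a KO line in which they were lower under CKI, and were 0.65 for Bst2 and 1.21 for Ifi44 with the block as well. Leaving out 1 line or WT library at a time gave 0 to 3 calls (Arid1a KO in vehicle), 1 to 4 (Smarcb1 KO in vehicle), 0 to 3 (Smarcb1 KO under CKI), 1 to 2 (CKI in Arid1a KO), 2 to 13 (CKI over all lines), 5 to 12 (Braf against WT) and 10 to 29 (all vehicle lines against WT). The other comparisons stayed at 0. The low depth of BS53965 under CKI limits what can be read of genes with few counts, and BA45198 is 1 library per treatment.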
